A study of Mus musculus with 17 samples.

Results

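Ash1l and 9 further genes for enzymes that methylate the tail of histone H3 were followed through the cortex of Hnrnph2 mutant mice. They were the 10 genes (Ash1l, Nsd1, Nsd2, Nsd3, Setd2, Setd5, Kmt2a, Kmt2b, Kmt2c and Kmt2d) matched by symbol among the 55453 distinct symbols of the deposited expression table, and every one of them was measured and passed the filter on low values. Ash1l was chosen by its measured values: the study had picked it from these same mice as raised in both knockin lines and not in the knockout. Its levels are therefore given as a description with no test. The other 9 genes were taken for the activity of their products, but with earlier results of these data known, and were tested.

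Bulk cortex RNA came from 17 male C57BL/6J mice, each hemizygous at the X-linked gene Hnrnph2, whose product, hnRNPH2, binds RNA and takes part in splicing. Hnrnph2-KO mice (n = 3), in which a small insertion or deletion shifts the reading frame, and mice carrying the R206W substitution (n = 3) were sampled at 8 weeks, beside WT littermate controls of each line (n = 3 and n = 3). Mice carrying the P209L substitution (n = 3) and their WT littermates (n = 2 analysed here) were sampled at 3 weeks, so line and age cannot be told apart for them. The alleles are constitutive, so every cell type of the animal carries them. The unit was TPM, a transcript's share of all transcripts of a sample after correction for length, so levels can be set side by side between genes, but the depth behind a sample is unknown. In bulk tissue, fewer cells of a type and less RNA per cell cannot be told apart. The p-values rest on a spread between mice that is shared, for each gene, over all 6 groups. The standard error (SE) of a gene is therefore the same in KO and R206W, and a mouse that stands apart enters it in every line. Fitted on its own groups, R206W had 1560 genes with an unadjusted p under 0.05 by limma in place of 357. KO had 334 in place of 663.

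Methylation of lysine 36 of histone H3 (H3K36) is laid down over transcribed gene bodies, and methylation of lysine 4 (H3K4) marks promoters and enhancers. Nsd1, Nsd2, Nsd3 and Ash1l add the first methyl groups to H3K36, and Setd2 completes the trimethylated state behind elongating RNA polymerase II. Kmt2a and Kmt2b methylate H3K4 at promoters, with menin as a partner, and Kmt2c and Kmt2d do so at enhancers. Loss of a copy of several of these genes causes neurodevelopmental syndromes in people, among them NSD1 in Sotos syndrome, KMT2A in Wiedemann-Steiner syndrome and KMT2D in Kabuki syndrome, and ASH1L is a gene of autism and intellectual disability.

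The libraries were checked before the levels were compared. The summed level of 6 genes of cortical neurons was 2558 to 3091 TPM in 3-week mice. At 8 weeks it was 2979 to 5294 TPM in KO controls and 4171 to 5126 TPM in the other groups. The part of this difference in the comparison of ages below was not tested. Hnrnph2 was at 23.1 ± 1.59 TPM (SD, n = 3) in KO mice and 122 ± 35.7 TPM (SD, n = 3) in their controls, a log2 difference of -2.30 (SE 0.170) with an adjusted p = 8.64e-06 by limma over all genes. One mouse, KO control 1, stood apart. Mitochondrial genes made up 20.1% of its TPM and 10.7% to 15.4% in the other mice, and the 10 genes with the highest TPM made up 36.5% of the total, compared with 19.4% to 29.3%. All 10 methyltransferase genes were lower in it than in the other KO controls, so the results that it moved most are also given without it. In the P209L line, the summed level of 6 oligodendrocyte genes was 2401 to 3460 TPM in mutants and 3964 to 5928 TPM in controls, and that of 6 skeletal muscle genes was 47.7 to 58.5 TPM against 113 to 118 TPM. The 5 genes of leptomeningeal fibroblasts summed to 39.5 to 62.6 TPM in mutants and 69.6 to 81.7 TPM in controls. The choroid plexus genes reached 1773 TPM in a P209L control and at most 27.5 TPM in any other mouse of either age. The other P209L control lay within the range of the P209L mutants, so the high value was that of a single mouse. The part of these differences in the P209L values below was not tested.

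A pair of promoters from the set is shown because Kmt2a and Kmt2c both had lower levels in 3-week than in 8-week controls, as described below. Other genes of the set were lower there too. The Kmt2c difference did not pass without either P209L control. It went from -0.55 to 0.082 (log2) once a trend of transcript length and GC content was taken out, while Kmt2a stayed lower at -0.49. Each line holds the 250 bases before the RefSeq start on GRCm38.p6, minus strand, read 5′ to 3′, with every CpG dinucleotide in capitals.
Kmt2a (chr9:44881290-44881539): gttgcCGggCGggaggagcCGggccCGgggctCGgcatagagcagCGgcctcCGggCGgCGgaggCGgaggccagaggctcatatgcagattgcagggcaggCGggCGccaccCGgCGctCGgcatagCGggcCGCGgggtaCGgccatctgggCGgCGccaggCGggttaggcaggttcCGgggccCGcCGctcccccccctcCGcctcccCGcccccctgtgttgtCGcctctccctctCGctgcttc
Kmt2c (chr5:25498784-25499033): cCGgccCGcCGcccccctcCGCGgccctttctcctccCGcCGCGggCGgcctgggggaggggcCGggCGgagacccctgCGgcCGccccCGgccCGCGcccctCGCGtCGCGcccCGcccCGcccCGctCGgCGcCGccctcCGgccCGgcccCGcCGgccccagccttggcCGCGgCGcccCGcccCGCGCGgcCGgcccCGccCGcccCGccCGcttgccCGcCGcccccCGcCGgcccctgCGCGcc
The Kmt2c window held 48 CpG and the Kmt2a window 29, against a median of 6 over the 32851 promoters of the RefSeq table, and 0.2% and 6.8% of those promoters held at least as many. The RefSeq table matched 5 of the 10 genes. Of the others with an entry, Setd2 had 31 CpG and Kmt2d 26, and the entry for Setd5 lay at an internal start and had 0. The letters describe the windows only, and no measurement of methylation or binding was made at them.

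Ash1l, whose product is a large H3K36 methyltransferase of the trithorax group, was higher in every knockin mouse than in every control of its line. The gene (ENSMUSG00000028053.13) lies on chromosome 3 from 88950622 to 89079375 on the plus strand of GRCm38. In R206W cortex it was at 55.4, 52.4 and 61.4 TPM, and in R206W controls at 38.7, 39.5 and 38.6 TPM. Every R206W mouse was above every control, and the controls spanned less than 1 TPM. The R206W mean of 56.4 ± 4.60 TPM (SD, n = 3) was 145% of the control mean of 38.9 ± 0.515 TPM (SD, n = 3), a log2 difference of 0.52 (SE 0.167). In P209L cortex Ash1l was at 20.8, 21.9 and 30.5 TPM, and in P209L controls at 12.4 and 14.1 TPM. The groups again did not overlap, and P209L 3 was the highest of the 3-week mice. The mean of 24.4 ± 5.34 TPM (SD, n = 3) was 184% of the control mean of 13.3 ± 1.20 TPM (SD, n = 2), a log2 difference of 0.81 (SE 0.186), and the value was 0.65 without P209L 3.

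In Hnrnph2-KO cortex Ash1l was at 30.2, 33.7 and 30.6 TPM, and in KO controls at 24.1, 38.4 and 39.0 TPM. KO control 1 lay below every KO mouse and the other KO controls above every KO mouse. The means were 31.5 ± 1.92 TPM (SD, n = 3) and 33.8 ± 8.44 TPM (SD, n = 3), a log2 difference of -0.068 (SE 0.167) that became -0.29 without KO control 1. The KO difference minus the R206W difference was -0.59 (SE 0.236) on the log2 scale. Ash1l entered the set for this pattern, so the values describe it and no test was made.

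**Figure D1:**
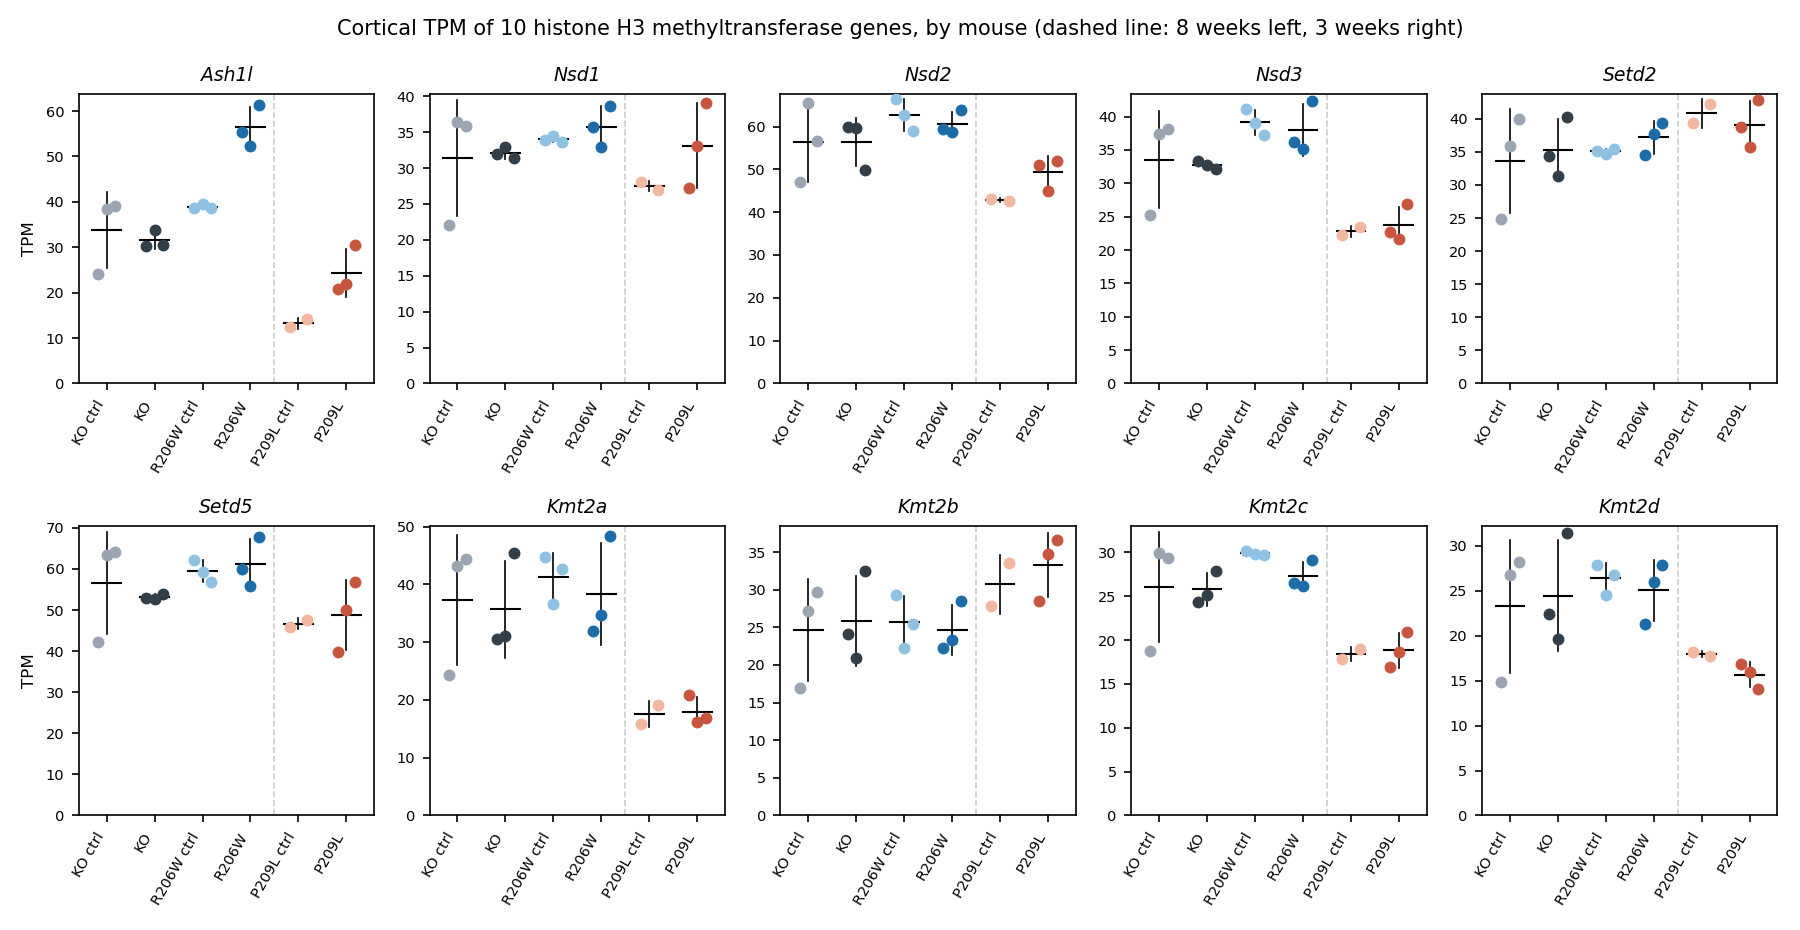
TPM of the 10 genes (vertical axes, each starting at 0) in the 6 groups (horizontal axes), with a point for each mouse, a horizontal bar at the mean and a vertical bar of 1 SD. In the Ash1l panel the R206W points sit between 52.4 and 61.4 TPM, above all controls, and the 3-week P209L points between 20.8 and 30.5 TPM, above their controls.

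Taken as a share of the summed TPM of the 10 genes, Ash1l made up 14.5%, 13.7% and 13.7% in R206W mice and 9.45% to 10.3% in their controls. The share was 7.33%, 7.48% and 9.07% in P209L mice and 4.59% and 4.93% in their controls. It was 8.78%, 9.92% and 8.16% in KO mice and 9.25%, 9.50% and 9.62% in theirs, where the groups overlapped. KO control 1, in which all levels were low, had a share of 9.25%. The summed TPM of the other 9 genes overlapped between mutants and controls in each line: 328 to 386 against 344 to 371 in R206W, 263 to 306 against 258 to 272 in P209L, and 306 to 345 against 236 to 366 in KO.

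**Figure D2:**
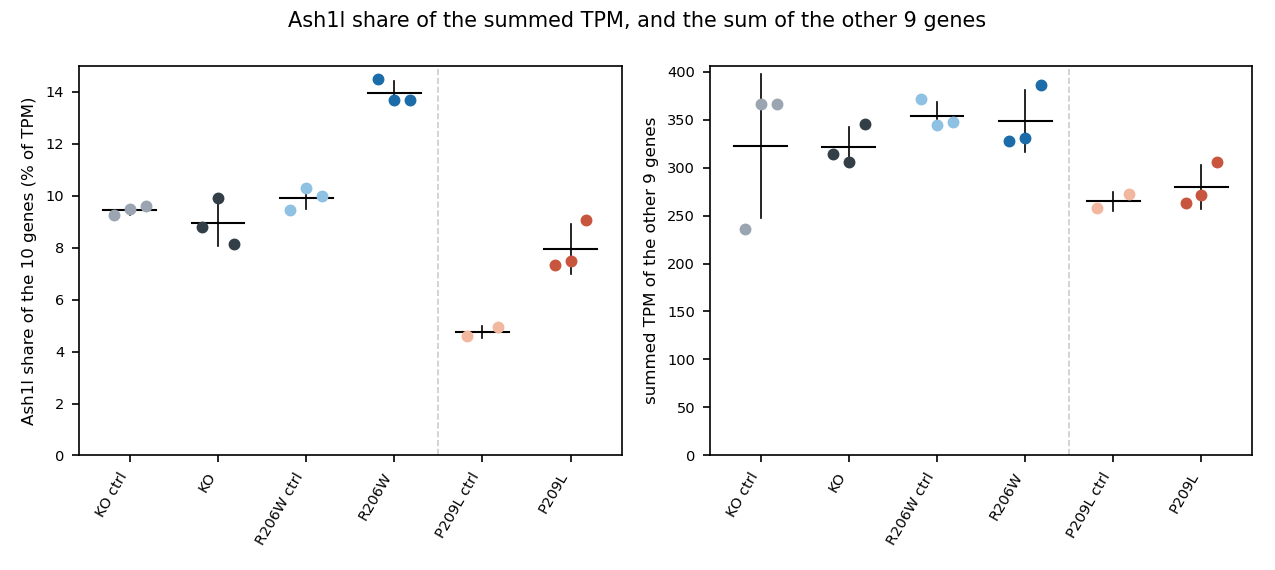
Share of Ash1l in the summed TPM of the 10 genes (left, percent) and summed TPM of the other 9 genes (right) by mouse, with the mean and 1 SD of each group. The R206W shares of 13.7% to 14.5% lie above those of all other mice, while the sums of the other genes overlap between each mutant group and its controls.

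The place of Ash1l in the order of levels differed between groups. It was the fifth of the 10 genes in R206W controls and the third in R206W mice, behind Setd5 at 61.2 ± 6.07 TPM (SD, n = 3) and Nsd2 at 60.7 ± 2.73 TPM (SD, n = 3), with which its range overlapped. It stood clear of Kmt2a, the next gene down, at 38.3 ± 8.81 TPM (SD, n = 3). In P209L controls Ash1l was the lowest of the 10, below Kmt2a at 17.5 ± 2.26 TPM (SD, n = 2) without overlap. In P209L mice it was the sixth, level within the spread with Nsd1 above it and Nsd3 below it. In KO controls it was the fourth and in KO mice the seventh, but in both of these groups its range overlapped with those of its neighbours. Setd5 and Nsd2 held the first 2 places in all 6 groups.

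An opposite-strand neighbour was followed because of its position, and not for its values. Dap3, the gene of a mitochondrial ribosomal protein, shares 352 exonic bases with Ash1l on the other strand, and the library kit marks strand, but whether the counting used strand is not given in the sources used here. Dap3 was at 66.7 to 73.0 TPM in R206W mice and 68.1 to 69.7 TPM in their controls, and at 94.3 to 104 TPM in P209L mice and 91.5 to 102 TPM in theirs. It overlapped between mutants and controls in each line, and it was higher in the 3-week mice, where Ash1l was lower. Nsd2 shares 60 exonic bases with Nelfa on the other strand, which was at 6.83 to 13.68 TPM. Kmt2a shares 378 with the antisense gene AC061963.1, for which no value was used here, and Kmt2c shares 274 with Gm42585, which was at no more than 0.01 TPM.

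None of the other H3K36 methyltransferases passed the test in a mutant line. Nsd1 was at 35.7, 32.9 and 38.6 TPM in R206W mice and 33.9, 34.5 and 33.7 TPM in controls, a log2 difference of 0.066 (SE 0.161), and P209L mice at 27.2, 33.1 and 39.1 TPM overlapped with controls at 27.5 ± 0.707 TPM (SD, n = 2). Nsd2, the most abundant of the NSD genes, was at 51.1, 44.9 and 52.0 TPM in P209L mice and 43.1 and 42.5 TPM in their controls. These groups did not overlap, but the log2 difference of 0.20 (SE 0.134) had an adjusted p = 0.833 by limma. In R206W mice Nsd2 overlapped with controls, at 58.7 to 63.8 TPM against 59.0 to 66.5 TPM. Nsd3 was at 35.2 to 42.4 TPM against 37.3 to 41.1 TPM in the R206W line and at 21.7 to 26.9 TPM against 22.2 to 23.4 TPM in the P209L line, and overlapped in both. Setd2, which writes H3K36 trimethylation, was at 34.5, 37.7 and 39.4 TPM in R206W mice and 35.1, 34.7 and 35.4 TPM in controls, and at 38.7, 35.7 and 42.8 TPM in P209L mice and 39.3 and 42.3 TPM in controls. Setd5, a SET domain protein of the same group, was at 55.9 to 67.9 TPM in R206W mice and 56.9 to 62.2 TPM in controls.

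The 4 H3K4 methyltransferases of the KMT2 family also did not pass the test in any mutant line. Kmt2c was at 26.5, 26.2 and 29.1 TPM in R206W mice and 30.2, 29.8 and 29.7 TPM in controls. All 3 mutants were below all 3 controls, and the log2 difference was -0.13 (SE 0.143) with an adjusted p of 1.00 by limma. Kmt2d was at 16.9, 16.0 and 14.1 TPM in P209L mice and 18.2 and 17.7 TPM in controls, also without overlap, with a log2 difference of -0.19 (SE 0.228) and an adjusted p = 0.936 by limma. Kmt2a and Kmt2b overlapped with controls in every line. Kmt2a varied widely among mutants of a line, at 31.9, 34.8 and 48.4 TPM in R206W mice and 30.6, 31.1 and 45.4 TPM in KO mice. The high mouse was in each case also the highest of its group for Kmt2b and Kmt2d. These were at 32.5 and 31.4 TPM in KO 3 and at 28.5 and 27.9 TPM in R206W 3. The KMT2 genes were not alone in this, as R206W 3 was the highest of its group for every gene of the set. KO 3 was also the highest of its group for Kmt2c, Setd2 and Setd5, but the lowest for Nsd1, Nsd2 and Nsd3. Mitochondrial genes made up 10.7% of TPM in R206W 3 and 12.9% in KO 3, each the lowest share of its group. The part of this share in these levels was not tested. The summed TPM of the KMT2 genes was 137 in KO 3 against 102 and 96.8 in the other KO mice, and 134 in R206W 3 against 102 and 110 in the other R206W mice.

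By count, 0 of the 9 genes passed an adjusted p of 0.05 by limma in KO, R206W or P209L mice, and 0 had an unadjusted p under 0.05. Over all 16265 genes tested, 0.00615% passed in KO, 0.0369% in R206W and 0.0984% in P209L, and 4.08%, 2.19% and 7.46% had an unadjusted p under 0.05. Groups that did not overlap were 0 of 9 in KO, against 6.25% of all genes, 1 of 9 in R206W (Kmt2c, lower), against 16.2%, and 2 of 9 in P209L (Nsd2 higher, Kmt2d lower), against 24.9%. The median log2 difference of the 9 genes was 0.017 in KO, -0.048 in R206W and 0.049 in P209L, beside medians over all genes of 0.064, 0.010 and 0.016. The signs of these medians turned with single mice, from -0.129 (without R206W 3) to 0.012 (without R206W 1) in R206W and from -0.037 (without P209L 3) to 0.091 (without P209L 1) in P209L. The single log2 differences ran from -0.065 to 0.093 in KO, from -0.13 to 0.082 in R206W and from -0.19 to 0.25 in P209L. A further fit weighted the mice by quality, that is, by how closely a mouse followed its group over all genes. KO control 1 had a weight of 0.0819 and KO 3 of 0.236, each the lowest of its group. In that fit 3 of the 9 were called lower in KO (Kmt2a -0.44, Setd5 -0.25 and Kmt2c -0.24 on the log2 scale). Their adjusted p ran from 0.0256 to 0.0416 by limma. KO 3 was the highest KO mouse for each of these 3 genes. Over all 16265 genes 2138 passed there, 1626 lower and 512 higher. Without KO control 1 the median of the 9 in KO was -0.19, and 0 of them passed.

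**Figure D3:**
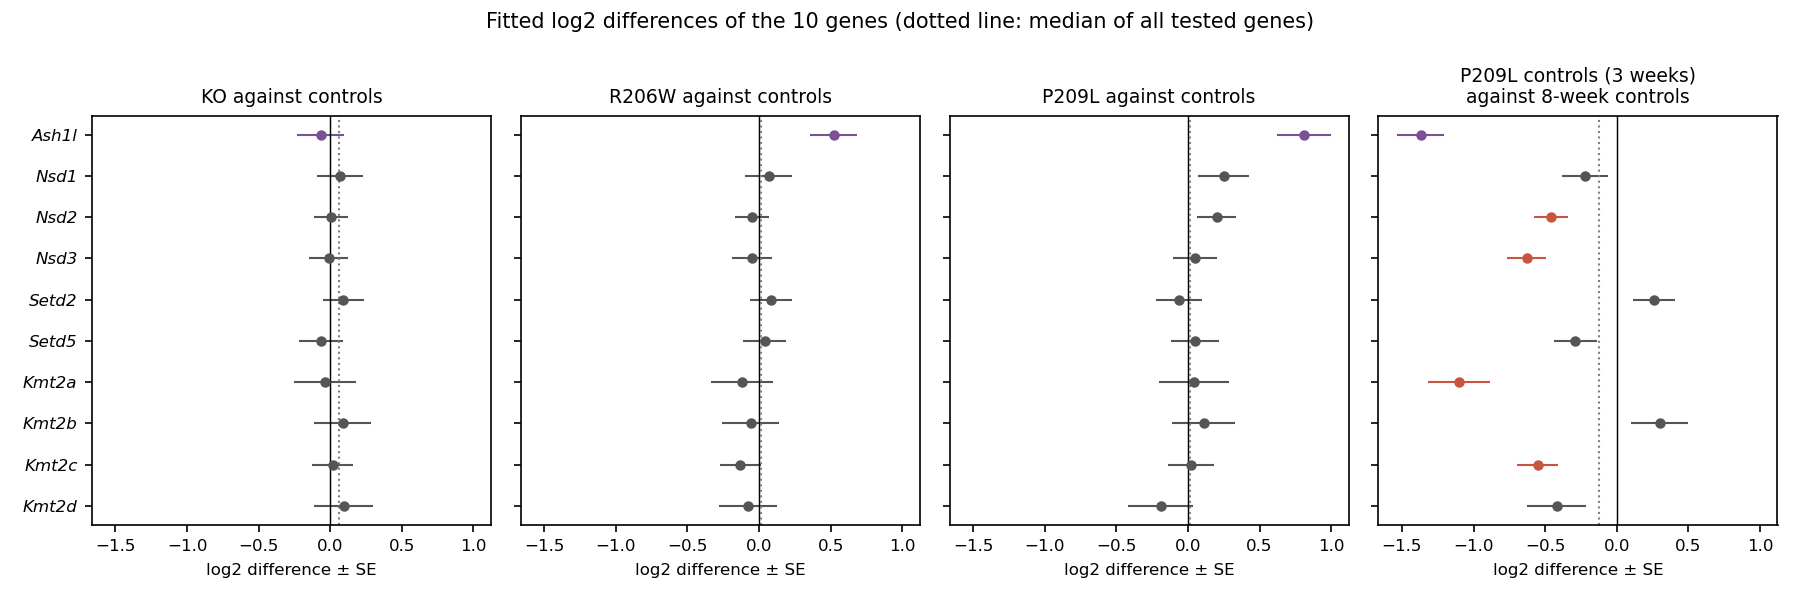
Log2 differences (horizontal axes, fitted on log2(TPM + 1), bars of 1 SE) of the 10 genes in KO, R206W and P209L mice against their controls, and in 3-week P209L controls against 8-week controls. Ash1l is in purple because it was not tested, genes past the adjusted threshold are in red, the others are in grey, and the dotted line is the median of all tested genes. In the R206W and P209L panels Ash1l is the gene farthest from 0, at 0.52 and 0.81, and in the last panel Kmt2a (-1.10), Nsd3 (-0.63), Kmt2c (-0.55) and Nsd2 (-0.46) are red.

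An interaction term in the same fit tested whether KO and R206W mice departed from their controls to different degrees. Of the 9 genes, 0 passed and 0 had an unadjusted p under 0.05, against 0.0307% of all genes that passed, and their median was 0.054 beside 0.053 for all genes. The sign of that median rested on KO control 1: it was -0.151 without that mouse and -0.148 with the mice weighted by quality. Between the R206W and KO controls, which are WT mice of 2 lines at the same age, 0 of the 9 passed and 0 had an unadjusted p under 0.05, while 0% of all genes passed and 507 had an unadjusted p under 0.05. All 9 had log2 differences above 0 there, as 83.9% of all genes did, with a median of 0.162, and that median was -0.082 without KO control 1.

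The 46 further genes of the pathway were read as a list with the same test. It held other H3K4 and H3K36 methyltransferases, subunits and partners of their complexes, H3K4 and H3K36 demethylases, and the H3K27, H3K9 and H3K79 methyltransferases. Of these, 0 passed in any mutant line. In KO mice the smallest p-values belonged to Smyd2, a methyltransferase of H3K36 and of other proteins (log2 difference 0.33, SE 0.146, adjusted p = 0.999), Prdm9, the meiotic H3K4 methyltransferase (0.35, SE 0.166), and Pagr1a, a subunit of the Kmt2c and Kmt2d complexes (0.98, SE 0.638). Each of these values moved with single mice. Smyd2 was at 0.17 without KO control 1 and 0.19 without KO 3, Prdm9 at 0.18 without KO control 2, and Pagr1a at 0.64 without KO control 1 and 0.63 without KO 3. With the mice weighted by quality Prdm9 was at 0.55 and passed (adjusted p = 0.0418 by limma). Prdm9 was near the filter, at 2.49 ± 0.185 TPM (SD, n = 3) in KO mice and 1.77 ± 0.561 TPM (SD, n = 3) in controls. Pagr1a varied widely, at 7.71 ± 4.24 TPM (SD, n = 3) in KO mice and 3.26 ± 1.55 TPM (SD, n = 3) in controls.

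In R206W mice the first 3 pathway genes by p were Ash2l, Suz12 and Ehmt2, at an unadjusted p of 0.196 or more by limma. Ash2l, a core subunit of the H3K4 complexes, was at 32.0, 31.6 and 33.6 TPM against 29.1, 29.4 and 28.1 TPM in controls (log2 difference 0.16, SE 0.119). Suz12, a core subunit of the H3K27 complex, was at 17.3 to 19.2 TPM against 19.9 to 20.7 TPM (-0.14, SE 0.122). Ehmt2, an H3K9 methyltransferase, was at 121 to 141 TPM against 110 to 118 TPM (0.17, SE 0.151). In P209L mice they were Morf4l1, Rbbp4 and Suv39h2. Morf4l1, whose product MRG15 binds ASH1L and activates it, was at 303, 307 and 330 TPM against 270 and 238 TPM in controls. These groups did not overlap, and the log2 difference of 0.30 (SE 0.115) had an adjusted p = 0.536 by limma. In R206W mice Morf4l1 was at 340 to 363 TPM against 353 to 374 TPM. Rbbp4, a histone-binding subunit of the H3K27 complex, was at 53.5 to 62.2 TPM against 47.4 to 50.9 TPM in the P209L line (0.22, SE 0.125), and Suv39h2, an H3K9 methyltransferase, at 2.58 to 3.31 TPM against 2.16 to 2.52 TPM (0.24, SE 0.137).

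The WT mice of the P209L line at 3 weeks were also set against the 6 WT mice of the other lines at 8 weeks. Here 4 of the 9 genes passed, all lower at 3 weeks, against 36.1% of all genes that passed in either direction. Kmt2a was at 15.9 and 19.1 TPM at 3 weeks and at 24.4 to 44.7 TPM in the 8-week controls, a log2 difference of -1.10 (SE 0.218, adjusted p = 0.00147 by limma). All 5 mice of 3 weeks, mutants included, had 15.9 to 20.9 TPM of Kmt2a, and all 12 mice of 8 weeks had 24.4 to 48.4 TPM, so the ages did not overlap in any genotype. Nsd3 was at 22.2 and 23.4 TPM against 25.2 to 41.1 TPM (-0.63, SE 0.138, adjusted p = 0.00273), Kmt2c at 17.9 and 19.0 TPM against 18.8 to 30.2 TPM (-0.55, SE 0.143, adjusted p = 0.00762) and Nsd2 at 43.1 and 42.5 TPM against 47.0 to 66.5 TPM (-0.46, SE 0.119, adjusted p = 0.00801), all by limma. Kmt2c overlapped between the ages through KO control 1 only. Ash1l, not tested, was at 12.4 and 14.1 TPM against 24.1 to 39.5 TPM, a log2 difference of -1.37 (SE 0.167).

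The remaining genes did not pass. Kmt2b was at 27.9 and 33.5 TPM at 3 weeks against 16.9 to 29.7 TPM (0.30, SE 0.199) and Setd2 at 39.3 and 42.3 TPM against 24.9 to 40.0 TPM (0.26, SE 0.145). These were the genes with values above 0, and Kmt2d (-0.42), Setd5 (-0.29) and Nsd1 (-0.22) had values below 0. Leaving out either P209L control kept 2 genes past the threshold (Kmt2a and Nsd3), and leaving out KO control 1 gave 7, all lower. With median-of-ratios size factors 6 passed, 4 lower and 2 higher (Setd2 at 0.37 and Kmt2b at 0.41). The calls over all 16265 genes moved in the same directions. They were 8181 without KO control 1 and 7118 with size factors, against 5876 in the main fit. They were fewer without either P209L control, which leaves 1 mouse in that group.

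The age difference ran with transcript length over all genes. The median log2 difference was 0.10 in the tenth of genes with the shortest transcripts and -0.518 in the tenth with the longest, in which 13.8% of genes were above 0. The 10 methyltransferase genes have longest annotated transcripts of 6755 bases (Setd5) to 19823 bases (Kmt2d) and were longer than 90.9% to 99.9% of the tested genes. After a trend fitted on length and GC content of the transcripts was taken out, 4 of the 9 genes passed, but they were Kmt2a, lower at -0.49 on the log2 scale, and Setd2 (0.78), Kmt2b (0.70) and Nsd1 (0.39), higher, at adjusted p-values by limma from 2.41e-05 for Setd2 to 0.000765 for Nsd1. Over all genes 7006 of 16138 passed in that fit. Nsd3 was then at -0.081, Nsd2 at 0.073 and Kmt2c at 0.082, none of which passed, and the median of the 9 moved from -0.418 to 0.103. Kmt2a passed in the same direction in all 26 alternatives, with adjusted p-values by limma of at most 0.0341, and Ash1l was at -0.77 with the trend removed. In the mutant comparisons of Ash1l the same correction left 0.53 in R206W and 0.76 in P209L.

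**Figure D4:**
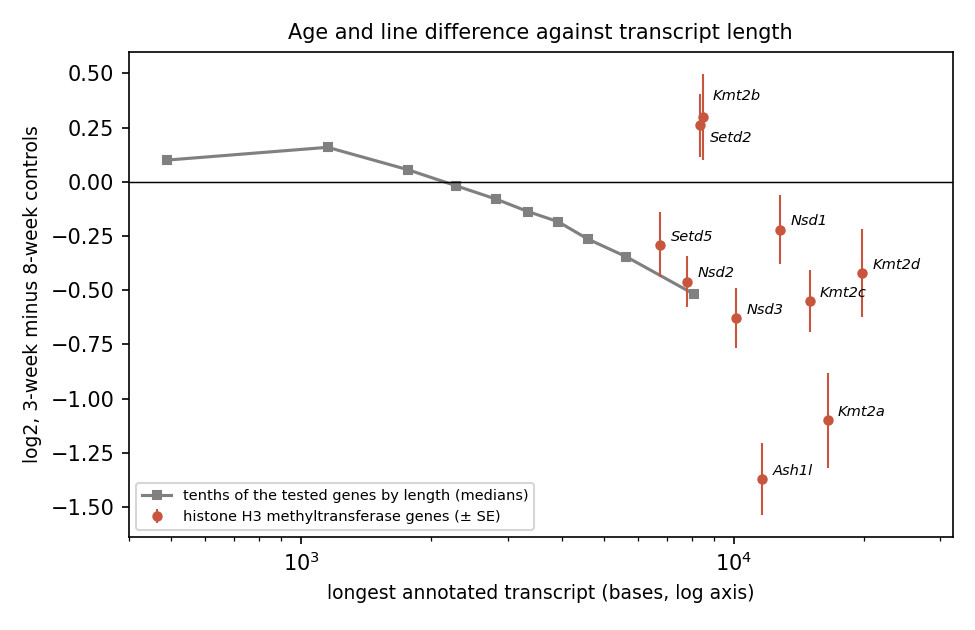
Log2 difference of 3-week P209L controls minus 8-week controls (vertical axis) against the length of the longest annotated transcript (horizontal axis, bases, log scale). Red points are the 10 genes with bars of 1 SE, and grey squares are the medians of the tested genes in 10 classes of length, from 0.10 in the shortest to -0.518 in the longest. Setd2 and Kmt2b lie above 0, and Ash1l and Kmt2a lie farthest below the grey line.

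Of the 46 pathway genes, 17 passed in the comparison of ages, 4 higher and 13 lower at 3 weeks, against the 36.1% of all genes. The smallest p-values belonged to Setd7, an H3K4 monomethyltransferase, at 29.6 and 30.7 TPM against 57.3 to 85.2 TPM (-1.31, SE 0.126, adjusted p = 1.16e-05 by limma), and the H3K4 demethylase Kdm5a, at 11.2 and 9.85 TPM against 15.2 to 23.7 TPM (-0.82, SE 0.128, adjusted p = 0.000275 by limma). Hcfc2, a subunit of KMT2 complexes (-0.85, SE 0.150), and Suz12 (-0.57, SE 0.122) were also lower, and Smyd2 was higher, at 73.0 and 82.9 TPM against 39.7 to 58.6 TPM (0.61, SE 0.146), but did not pass without P209L control 2 (0.52, adjusted p = 0.0852 by limma). With the trend of length and GC taken out, Kdm5a no longer passed (-0.21, adjusted p = 0.0597 by limma), and Suz12 was at -0.25 and passed. By group, 3 of the 6 H3K4 demethylases were called, all lower, and 0 of the 4 core subunits of the H3K4 complexes. Over all genes 4039 of 16265 were called lower and 36.1% in either direction, and groups this small cannot be told apart from those shares. When single mice were left out, the count of 17 became 11 (KO control 2) or 27 (KO control 1). Over all 16265 genes 5106 and 8181 passed in those fits, against 5876 in the main fit. The pathway count and the count over all genes were both lower without either P209L control, which leaves 1 mouse in that group.

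The genes whose 6 group means were most like those of Ash1l were found from the root mean square difference of centred log2 means over all tested genes. They were Socs5 (0.103), Sipa1l1 (0.124), Gm21742 (0.140), Trpc5 (0.150) and Nr4a3 (0.160). Socs5, a suppressor of cytokine signalling, had means of 73.9 ± 0.130 TPM (SD, n = 3) in R206W controls, 91.9 ± 5.27 TPM (SD, n = 3) in R206W mice, 28.1 ± 1.27 TPM (SD, n = 2) in P209L controls and 44.8 ± 3.55 TPM (SD, n = 3) in P209L mice. Sipa1l1, which encodes a postsynaptic Rap GTPase-activating protein, had means of 145 ± 7.29, 204 ± 15.0, 48.3 ± 4.64 and 79.4 ± 14.4 TPM in the same groups. In KO controls and KO mice Socs5 was at 65.2 ± 10.5 and 61.6 ± 3.88 TPM and Sipa1l1 at 141 ± 35.3 and 130 ± 13.1 TPM (SD, n = 3). Gm21742 and Nr4a3 varied widely between mice. In P209L controls and P209L mice they were at 1.90 ± 1.51 and 3.89 ± 3.11 TPM, and at 7.44 ± 3.27 and 12.4 ± 9.44 TPM (SD, n = 2 and n = 3). Of the other 9 methyltransferase genes the nearest was Kmt2a, at 0.330 and rank 792 of 16264 genes, which shares the low 3-week level but had 38.3 TPM in R206W mice against 41.3 TPM in controls. Setd2 (0.684) and Kmt2b (0.750) were the least like it. Likeness here is a description over 6 means that share mice, with no test.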

How the data were processed

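The deposited values were TPM, as estimated by the authors, with gene symbols in the first column and 1 further column for each of the 17 mice. The submitters' processing notes name Trim Galore, STAR 2.7.1a, GATK 4.0.4.0, RSEM and mm10; the annotation is not given in the sources used here. TPM keeps no read depth, so no counting error is given, and each value is a share, which moves when very abundant transcripts of the same library do. Repeated symbols (120 of 55573 entries) were summed. Gene positions and transcripts came from GENCODE M21 (GRCm38), matched by symbol. Genes averaging 1 TPM or more (16265) were fitted as log2(TPM + 1) with limma 3.58.1 in R 4.3.3, a mean for each of the 6 groups and a trended variance; folds on this scale understate the change of low genes. The test was two-sided, with Benjamini-Hochberg adjustment over all genes and a threshold of 0.05. It was tested on simulated data with independent noise for each mouse. Those data held no mouse that stood apart over all genes, as KO control 1 does here. Ash1l was left untested. The genes named were the 10 members, the 3 pathway genes with the smallest p in each mutant comparison and 5 in the comparison of ages, the 5 genes most like Ash1l, and Hnrnph2; Dap3 was added for its position. The members and lists were chosen with earlier results of these data known. The sample titles do not say whether replicate numbers pair the mice, and the main fit used no pairing. Alternatives were a pseudocount of 0.1, no filter, a mean TPM of at least 5, median-of-ratios size factors, mitochondrial genes removed, each comparison fitted on its own groups, a replicate block, sample weights, removal of the trend of length and GC content, and each of the 17 mice left out.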

Additional observations from a re-analysis of the deposited data

How the results depend on the processing

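The depth is unknown, the groups hold 2 or 3 mice, and age and line are the same split for the P209L mice, so a missed threshold does not show that a gene did not differ. Over all alternatives 0 of the 9 tested members passed in R206W and in P209L mice, and Ash1l stayed between 0.46 and 0.57 (log2) in R206W and between 0.65 and 0.92 in P209L. In KO mice Ash1l lay between -0.29 (without KO control 1, and also with sample weights) and 0.048 (without KO control 3). Sample weights called 3 members and 5 pathway genes in KO mice, where 0 and 0 passed otherwise, and 7 members and 32 pathway genes in the comparison of ages, where 4 and 17 passed. Without 1 mouse these last counts ran from 2 to 7 members and from 5 to 27 pathway genes. The cause of these shifts was not tested. Over all genes, the calls ran from 0 to 2138 in KO (1 in the main fit; 334 had an unadjusted p under 0.05 at the count of 0, fitted on its own groups), 5 to 149 in R206W (6), 6 to 106 in P209L (16), 2 to 319 in the KO minus R206W difference (5), 0 to 26 between the 8-week controls (0) and 2719 to 9470 between the ages (5876); the highest counts came with sample weights, except in P209L, where the length and GC trend had been removed. Size factors moved the median of all genes from 0.129 to -0.002 between the 8-week controls, and the split of calls between the ages from 1837 higher and 4039 lower to 3239 and 3879; removal of the length and GC trend gave 3738 and 3268. Fitted on its own groups, Hnrnph2 in KO kept its difference of -2.30 with an adjusted p = 0.0828 by limma. The direction of small differences changed as follows. In KO, sample weights gave Nsd1 -0.16, Nsd2 -0.11, Setd2 -0.091, Kmt2b -0.19, Kmt2c -0.24 and Kmt2d -0.26; size factors gave Nsd1 -0.013, Nsd2 -0.073 and Kmt2c -0.061; removal of mitochondrial genes gave Nsd2 -0.007; and removal of the length and GC trend gave Kmt2b -0.021 and Kmt2d -0.002. In R206W, sample weights gave Setd5 -0.005. In P209L, sample weights gave Kmt2a -0.022 and the length and GC trend Kmt2c -0.010. Between the ages, removal of that trend gave Nsd1 0.39, Nsd2 0.073, Setd5 0.10, Kmt2c 0.082 and Kmt2d 0.12. The sample titles do not say whether numbers shared between groups mark pairs. Deviations of mice with the same number correlated at -0.113 to 0.331, which with 2 or 3 mice a group cannot exclude pairing. With a replicate block, 25 genes in place of 16 passed in P209L, and 0 of the 9 members passed in any mutant line. Setd5 (-0.005), Kmt2a (-0.057) and Kmt2c (-0.033) then changed direction in P209L. Leaving out 1 mouse at a time, the KO values ran from -0.16 to 0.18 for Nsd1, -0.12 to 0.12 for Nsd2, -0.20 to 0.089 for Nsd3, -0.10 to 0.23 for Setd2, -0.26 to 0.035 for Setd5, -0.31 to 0.11 for Kmt2a, -0.15 to 0.24 for Kmt2b, -0.19 to 0.13 for Kmt2c and -0.19 to 0.25 for Kmt2d, each lowest without KO control 1. The R206W values ran from -0.13 to 0.002 for Nsd3, -0.037 to 0.10 for Setd5, -0.16 to 0.038 for Kmt2b and -0.15 to 0.030 for Kmt2d. The P209L values ran from -0.037 to 0.11 for Nsd3, -0.066 to 0.19 for Setd5, -0.084 to 0.17 for Kmt2a, -0.018 to 0.24 for Kmt2b and -0.051 to 0.091 for Kmt2c.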
